A study of Mus musculus with 14 samples.

Results

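The genes of oxidative phosphorylation were described in full-grown mouse oocytes with and without catalytically active AGO2 or DICER. They were taken by symbol, as all genes whose name begins with Nduf, Uqcr, Cox4 to Cox8 or Atp5, and each gene was read at its RefSeq transcript with the highest mean count. The rule gave 89 genes of 20638, of which 44 belong to complex I, 8 to complex III, 20 to complex IV and 17 to complex V. Complex II genes do not carry these names and are given further on.

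Oxidative phosphorylation makes ATP in the inner mitochondrial membrane. Complex I takes electrons from NADH, complex III passes them from ubiquinol to cytochrome c, complex IV hands them to oxygen, and complex V, the ATP synthase, uses the resulting proton gradient. Most subunits are encoded in the nucleus and a few in the mitochondrial genome. The growing oocyte depends on this pathway, since it takes up pyruvate from the surrounding cells and burns it in its own mitochondria. AGO2 is the Argonaute protein that can cut an RNA paired with a small RNA, and DICER makes the small interfering RNAs and microRNAs that guide it.

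RNA-seq was performed on germinal vesicle-intact oocytes from females of 4 to 6 weeks that had received 5 IU of equine chorionic gonadotropin 48 h earlier. The 14 libraries comprised 3 of Ago2 fl/fl (floxed, labelled wild-type and used as controls), 3 of Ago2 ADH and 2 of Ago2 null, with 3 of Dicer WT and 3 of Dicer KO from the other series, each made from 20 oocytes pooled from 3 mice per the labels. Ago2 ADH oocytes came from females that carried a floxed Ago2 allele, an ADH allele whose product cannot cleave RNA, and Zp3-Cre, so that only the ADH allele is left once Cre has acted. Ago2 null females (Ago2 fl/fl with Zp3-Cre) came from the same crosses, and Dicer KO denotes a deletion restricted to the oocyte. The breeding scheme lists the Ago2 fl/fl controls without Cre. The presence of Cre thus goes with the Ago2 mutant genotypes, and their effects cannot be told apart. The Zp3 promoter drives Cre in growing oocytes only, so protein and RNA made before excision can persist, and the other ovarian cells keep their alleles. The animals were of a mixed, mostly C57BL6 background. The replicates of a group were collected separately, each from a pool of females.

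Counts on transcripts ranged from 29380403 to 58285057 per library. A floor of 3 counts corresponded to 0.0515 to 0.102 CPM (counts scaled to library size), which covers counting error only because amplified reads carry no molecular identifiers. Ago2 was at 23.97 to 25.5 normalised CPM in Ago2 fl/fl, 12.4 to 13.7 in Ago2 ADH and 5.30 to 7.17 in Ago2 null libraries. Dicer1 was higher in Dicer KO libraries (log2 fold change 1.26 ± 0.06), and a count over the whole transcript does not check a deletion of part of it. Dicer1 was also higher in Ago2 ADH (0.67 ± 0.04) and Ago2 null (0.59 ± 0.05), and Ago2 was lower in Dicer KO (-0.56 ± 0.11). The 10 oocyte markers summed to between 12211 and 19175 CPM in every library, while immune and erythroid markers summed to less than 0.1 CPM. The 12 granulosa and cumulus markers summed to 79.3 to 85.6 CPM in Ago2 fl/fl, 62.8 to 69.9 in Ago2 ADH and 58.9 to 60.8 in Ago2 null libraries, and to 97.7 to 105 in Dicer WT and 81.9 to 87.0 in Dicer KO libraries, mostly from Cyp19a1 and Nr5a2. The 5 theca and luteal markers summed to 2.51 to 4.51, 7.42 to 15.4, 4.08 to 6.58, 2.53 to 3.29 and 2.34 to 3.94 CPM in the same order. The 2 endothelial markers summed to 32.4 to 44.0 CPM over all libraries, nearly all from Pecam1, and Cdh5 was at or near 0. Of the granulosa markers 10 could be tested in the Ago2 comparisons and 7 in Dicer KO, of which 0, 0 and 0 were higher and 3, 1 and 2 lower in Ago2 ADH, Ago2 null and Dicer KO. The lower shares were 30%, 10% and 28.6%, beside 19.9%, 18.7% and 17.6% of all genes. A positive log2 fold change, called or not, was found for 5, 1 and 2 of them. Cyp19a1 was lower in Ago2 ADH (-0.50 ± 0.09) and Ago2 null (-0.59 ± 0.09), and Fshr in Ago2 ADH (-1.67 ± 0.47), while Amh and Foxl2 had group means of at most 0.153 and 0.0856 CPM. Hsd17b1 (1.36 ± 0.46) and Inha (0.97 ± 0.33) were positive in Ago2 ADH and not called. Of the theca and luteal markers Hsd3b1 (2.09 ± 0.25) and Cyp11a1 (1.73 ± 0.33) were called higher in Ago2 ADH. Cyp11a1 was called lower in Dicer KO (-2.91 ± 0.52). The part of these markers in the results was not tested.

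In control oocytes the members spanned a wide range of levels. Levels between genes are given here as normalised CPM per kilobase of transcript (mean ± SD, n = 3). The highest of complex V in Ago2 fl/fl was Atp5mpl, a small membrane subunit of the ATP synthase, at 736 ± 63.8 in Ago2 fl/fl and 283 ± 27.5 in Dicer WT oocytes. The highest of complex IV was Cox7c, a small structural subunit, at 604 ± 42.2 and 356 ± 5.78. Uqcrh, the hinge protein of complex III, led its complex at 274 ± 26.1 and 119.9 ± 7.26, and Ndufa11, a membrane subunit and the highest of complex I in Ago2 fl/fl, was at 194 ± 11.5 and 89.8 ± 4.57. In Dicer WT oocytes Ndufb11 (101 ± 6.25) and Atp5b (312 ± 38.1) were the highest of complexes I and V. The medians per complex were 43.4 for complex I, 68.4 for complex III, 119 for complex IV and 124 for complex V in Ago2 fl/fl oocytes, and 26.1, 42.9, 62.2 and 76.4 in Dicer WT oocytes. The Ago2 and Dicer libraries were sequenced separately, so that genotype series and sequencing cannot be told apart, and the difference in level between them was not tested.

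**Figure D1:**
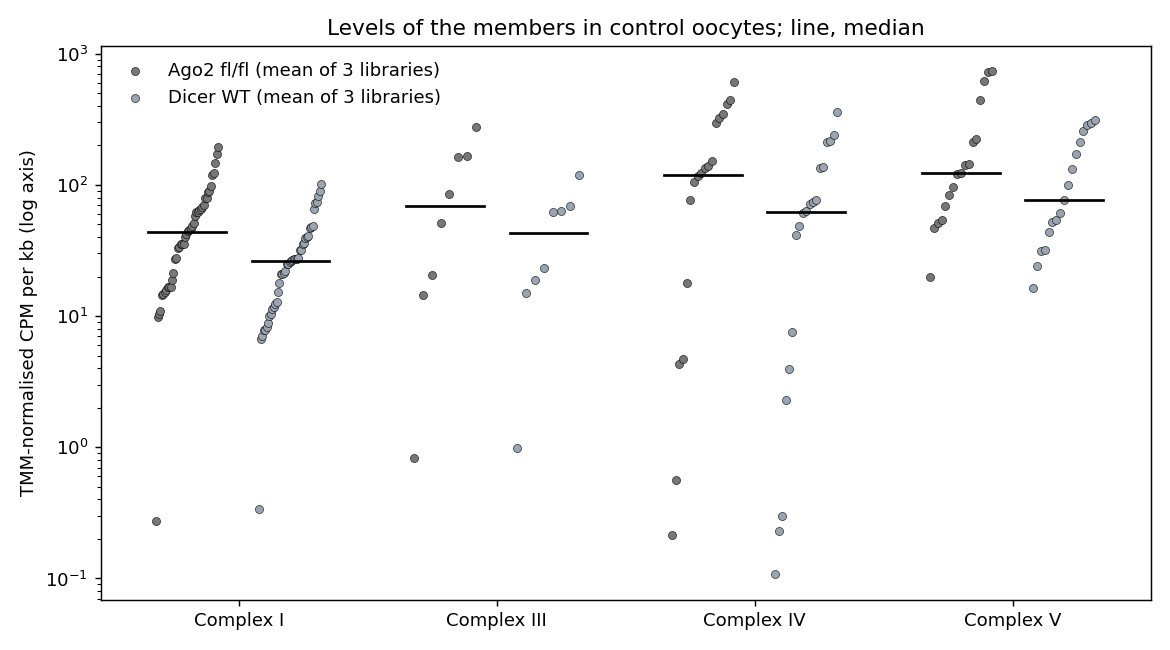
Mean level of each member in Ago2 fl/fl and Dicer WT oocytes, in TMM-normalised CPM per kilobase on a log axis, by complex; each point is 1 gene and the line is the median over all members of the complex. Genes under 0.05 are not drawn. Complexes IV and V reach the highest values (604 and 736 in Ago2 fl/fl), and complex IV has the widest spread, down to its isoform genes.

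Several subunits of complex IV exist as a common form and as a form known from other tissues, and the oocyte libraries held mainly the common one. Cox4i1, the common form of subunit 4, was at 134 ± 5.45 CPM per kilobase in Ago2 fl/fl oocytes and Cox4i2, known from lung, at 4.29 ± 0.225. Cox6a1 was at 444 ± 33.3 against 17.9 ± 1.21 for the heart and muscle form Cox6a2. Cox7a2 was at 298 ± 18.5 and its relative Cox7a2l, which takes part in respiratory supercomplexes, at 123 ± 10.2, whereas the muscle form Cox7a1 was at 0.216 ± 0.155. Subunit 6b differed, since Cox6b2, known from testis, reached 77.1 ± 4.497 beside 116 ± 7.59 for Cox6b1. Cox8a was at 153 ± 8.08 and the testis form Cox8c at 4.68 ± 0.383. Cox8b, the muscle form, had counts in Dicer WT replicate 2 only (2 counts), under the floor of 3.

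Cox7b was at 138 ± 6.26 CPM per kilobase and Cox6c at 321 ± 26.2, while Cox7b2 had no count in the Ago2 libraries and had 3 to 6 counts in each Dicer library, at or just above the floor. Ndufa4, named for complex I but known to sit in complex IV, was at 348 ± 30.5, and its relative Ndufa4l2, known from hypoxic cells, at 0.562 ± 0.118. Cox7b2 and Cox8b passed the filter on low counts in no comparison, and Cox7a1 passed it in the comparisons with Ago2 null only.

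The first comparison set Ago2 ADH against Ago2 fl/fl oocytes. These differ in AGO2 cleavage, in Cre and in the level of Ago2, at 12.4 to 13.7 CPM against 23.97 to 25.5, and these cannot be told apart. In Ago2 ADH oocytes 27 of the 86 members tested were higher than in Ago2 fl/fl and 9 were lower by edgeR's quasi-likelihood test with an FDR of 1%, and the median log2 fold change was 0.13. Over all 13979 genes tested, 21.0% were called higher and 19.9% lower, and the median was 0.01. The members called higher were thus 31.4% of those tested and the members called lower 10.5%. The changes were small, as 19 of the 27 increases and 8 of the 9 decreases were under 0.5 on the log2 scale and a single one, that of Uqcrc1, reached 1. In such pooled cells, fewer cells of a type and less RNA per cell cannot be told apart. With offsets for GC content and transcript length 18 of the 86 members were higher, instead of 27, and 10 lower. The members are short, with a median of 731 bases against 2908 for all genes tested. The shares of all genes were not counted with these offsets, so no excess of higher members is shown under them. Counts per complex are given without the offsets.

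In Ago2 null oocytes 31 of 87 members were higher and 3 lower, with a median log2 fold change of 0.18. The background over 14302 genes was 18.6% higher and 18.7% lower, and the share of members was 35.6% and 3.45%. The Ago2 ADH and Ago2 null comparisons share their 3 control libraries, so they are not independent of each other. With the GC and length offsets 19 members were higher and 10 lower in Ago2 null oocytes, and the median log2 fold change was 0.073. The shares of all genes were not counted with the offsets here either. The count of higher members was 19, 18 and 17 without Ago2 fl/fl replicate 2, Ago2 fl/fl replicate 3 and Ago2 null replicate 2.

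In Dicer KO oocytes 5 of 86 members were higher and 8 lower, which is 5.81% and 9.30%, and the median was -0.03. Over all 13799 genes tested 16.9% were higher and 17.6% lower. In these libraries 73 members were therefore not called, against 50 for Ago2 ADH and 53 for Ago2 null. The Dicer libraries held 29380403 to 42646207 transcript counts and the Ago2 libraries 42418305 to 58285057, and the part of depth was not tested. With all 5 groups in one fit 9 were higher and 8 lower in Dicer KO. Reads with several alignments, which are tallied apart from the counts, stood at 55.7 to 59.7 per 100 transcript counts in Ago2 fl/fl, 158 to 166 in Ago2 ADH and 157 to 166 in Ago2 null libraries. In the Dicer series they stood at 38.8 to 53.6 in Dicer WT and 93.9 to 119 in Dicer KO libraries, and their part in the results was not tested. The lane names put the libraries of an Ago2 genotype together on 1 lane that no other genotype used, and these effects cannot be told apart.

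**Figure D2:**
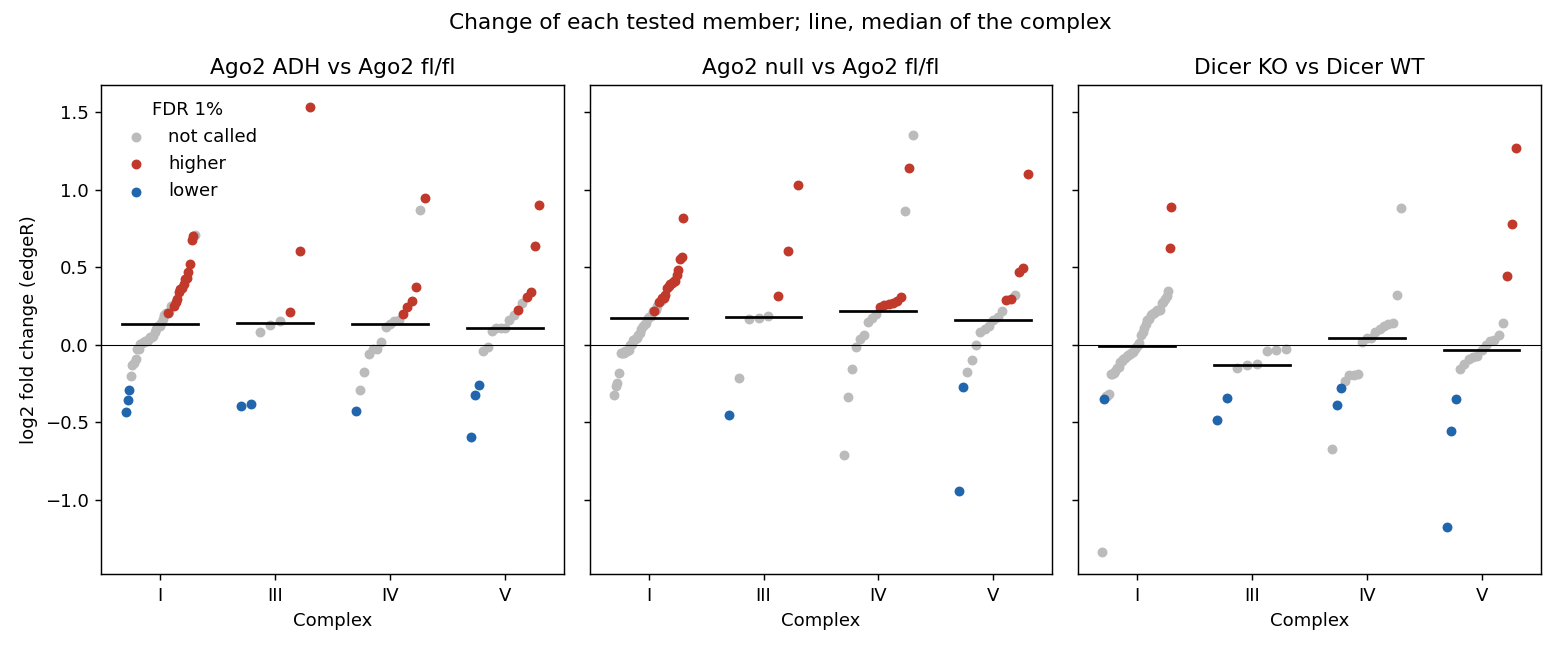
Log2 fold change of each tested member (points) by complex in the 3 comparisons with controls; red and blue points were called higher or lower at an FDR of 1%, grey points were not called, and the line is the median of the complex. Ago2 ADH shows 27 red and 9 blue points, Ago2 null 31 and 3, and Dicer KO 5 and 8.

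Atp5c1, Atp5g1, Atp5g3 and Ndufaf2 were called higher in each of the 3 comparisons, and Atp5e, Atp5k and Uqcr10 were called lower in each. The share of all genes called the same way in all 3 was not counted. These shared calls therefore do not set the members apart from other genes.

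The genes of subunit c, the proton-carrying ring of the ATP synthase, included the 2 largest increases called in complex V in each comparison, Atp5g3 and Atp5g1. Atp5g1, Atp5g2 and Atp5g3 encode the same mature protein with different import sequences. Atp5g3 was at 39.6, 39.2 and 31.1 normalised CPM in Ago2 fl/fl, 67.6, 72.6 and 58.8 in Ago2 ADH and 76.99 and 76.8 in Ago2 null libraries. It was at 17.4, 17.6 and 16.6 in Dicer WT and 40.5, 41.2 and 43.3 in Dicer KO libraries. Every mutant library lay above every control library of its own series. The log2 fold changes were 0.90 ± 0.09 (adjusted p = 7.55e-08) in Ago2 ADH, 1.10 ± 0.09 (adjusted p = 3.49e-08) in Ago2 null and 1.27 ± 0.09 (adjusted p = 1.14e-09) in Dicer KO oocytes (± SE).

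Atp5g1 was at 78.8, 82.3 and 90.3 CPM in Ago2 fl/fl, 118, 133 and 127 in Ago2 ADH and 118 and 113 in Ago2 null libraries. In the Dicer series it was at 99.7, 104 and 106 in Dicer WT and 181, 171 and 180.1 in Dicer KO libraries. The groups did not overlap in any of these comparisons. Its log2 fold changes were 0.63 ± 0.06 (adjusted p = 7.77e-08), 0.49 ± 0.07 (adjusted p = 2.15e-05) and 0.78 ± 0.06 (adjusted p = 6.23e-09) in Ago2 ADH, Ago2 null and Dicer KO. Atp5g2 lay at 58.3, 64.2 and 59.6 in Ago2 fl/fl and 60.8, 70.8 and 58.3 in Ago2 ADH libraries, ranges that overlap. Its log2 fold changes of 0.11 ± 0.07, 0.09 ± 0.07 and -0.09 ± 0.09 were not called. Of the Atp5g2 bases 88.2% and of the Atp5g1 bases 69.0% match an annotated pseudogene at 95% identity or more, so reads of these genes can be shared with other loci, while no such match was found for Atp5g3.

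Atp5k, the membrane subunit e that lies where ATP synthase dimers meet, was the largest decrease called in each of the 3 comparisons. It was at 172, 159.6 and 159 CPM in Ago2 fl/fl, 102, 116 and 96.3 in Ago2 ADH and 80.1 and 86.2 in Ago2 null libraries. The Dicer WT libraries were at 81.5, 82.3 and 70.2 and the Dicer KO libraries at 37.6, 31.5 and 35.1. All mutant libraries were lower than all of their controls, and both Ago2 null libraries were lower than the 3 Ago2 ADH libraries. The log2 fold changes were -0.59 ± 0.06 (adjusted p = 1.27e-07) in Ago2 ADH, -0.94 ± 0.06 (adjusted p = 3.46e-09) in Ago2 null and -1.17 ± 0.09 (adjusted p = 2.40e-09) in Dicer KO oocytes. A pseudogene matches 56.6% of its bases.

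Atp5g1 and Atp5g3 rose and Atp5k fell in all 3 mutants, as some other members did, and Ndufs6 moved in the Ago2 mutants, as others did. The promoters of Atp5g1, Atp5g3, Atp5k and Ndufs6 are shown as examples picked with their values seen. Each covers 250 bases before and 50 after the annotated start, from RefSeq on GRCm38, all on the minus strand and written 5′ to 3′. Capitals mark the letters of 3 motifs known from promoters of respiratory genes, searched on both strands: NRF1 (GCGCATGC), ETS (CCGGAAG) and YY1 (AAGATGGC).
Atp5g1 (chr11:96075582-96075881): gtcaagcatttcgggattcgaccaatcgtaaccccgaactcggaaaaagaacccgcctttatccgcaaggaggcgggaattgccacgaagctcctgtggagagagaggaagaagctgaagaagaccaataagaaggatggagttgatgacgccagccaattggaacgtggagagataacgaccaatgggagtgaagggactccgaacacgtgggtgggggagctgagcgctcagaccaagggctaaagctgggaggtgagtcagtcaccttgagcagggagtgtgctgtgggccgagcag
Atp5g3 (chr2:73911277-73911576): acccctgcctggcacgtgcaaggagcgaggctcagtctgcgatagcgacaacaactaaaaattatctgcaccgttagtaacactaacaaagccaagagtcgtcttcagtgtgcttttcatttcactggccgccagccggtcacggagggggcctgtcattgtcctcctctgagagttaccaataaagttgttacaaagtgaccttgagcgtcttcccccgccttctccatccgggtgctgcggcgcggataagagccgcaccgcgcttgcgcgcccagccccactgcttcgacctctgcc
Atp5k (chr5:108434350-108434649): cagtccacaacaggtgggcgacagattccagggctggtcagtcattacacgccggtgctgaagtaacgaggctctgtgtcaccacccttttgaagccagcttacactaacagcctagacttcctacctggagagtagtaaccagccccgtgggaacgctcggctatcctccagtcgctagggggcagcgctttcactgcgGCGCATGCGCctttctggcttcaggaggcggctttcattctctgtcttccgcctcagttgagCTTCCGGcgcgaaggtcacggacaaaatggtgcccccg
Ndufs6 (chr13:73328433-73328732): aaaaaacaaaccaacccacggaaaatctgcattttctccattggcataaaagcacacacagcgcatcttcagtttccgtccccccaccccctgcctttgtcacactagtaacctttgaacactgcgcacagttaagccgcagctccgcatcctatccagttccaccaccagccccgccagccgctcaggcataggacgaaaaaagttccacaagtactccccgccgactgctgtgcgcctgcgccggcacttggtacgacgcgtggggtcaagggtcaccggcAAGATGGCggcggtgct

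Atp5k held the NRF1 letters at -50 and, on the other strand, at -48, in 1 stretch that reads the same both ways, and the ETS letters at 13 bases from the start. Ndufs6 held the YY1 letters at position 34. Neither Atp5g1 nor Atp5g3 held any of these letters in the window, and CCAAT occurred 5 times in Atp5g1 and 1 time in Atp5g3. Of the 73 members with a promoter sequence 15.1% held the NRF1 letters, against 2.71% of all 32851 promoters. The shares were 21.9% against 8.86% for ETS, 13.7% against 2.75% for YY1, 45.2% against 35.7% for the SP1 letters GGGCGG and 43.8% against 37.4% for CCAAT. These sets are unlike, since each member was read at the 1 promoter nearest the start of its transcript. The 32851 were not limited to 1 per gene or to expressed genes. In Ago2 ADH oocytes 0 of the 16 members with the ETS letters and 21 of the 54 without them were called higher, and in Ago2 null oocytes 3 of 16 and 23 of 55. In Dicer KO it was 0 of 16 and 5 of 54. Called lower in Ago2 ADH were 3 of 16 and 4 of 54. The other letters showed less of a split in Ago2 ADH, where 21.0% of all genes were higher. Higher were 3 of 11 with and 18 of 59 without the NRF1 letters, and 3 of 10 and 18 of 60 for YY1. For SP1 it was 10 of 32 and 11 of 38, and for CCAAT 10 of 30 and 11 of 40. In Ago2 null (18.6% of all genes) it was 5 of 11 and 21 of 60 for NRF1 and 5 of 10 and 21 of 61 for YY1. SP1 gave 11 of 32 and 15 of 39 there, and CCAAT 11 of 31 and 15 of 40. In Dicer KO (16.9%) CCAAT also showed a split, with 5 of 30 and 0 of 40 higher. The others there were 0 of 11 and 5 of 59 for NRF1, 0 of 10 and 5 of 60 for YY1, and 2 of 32 and 3 of 38 for SP1. The ETS split was chosen after its values were seen, and no test was made.

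The F1 part of the ATP synthase, which holds the catalytic sites, showed 1 increase and 1 decrease among its 5 genes in each comparison. That is 20% higher and 20% lower, close to the shares of all genes. Those were 21.0% and 19.9% in Ago2 ADH, 18.6% and 18.7% in Ago2 null, and 16.9% and 17.6% in Dicer KO. Atp5c1, the central stalk subunit gamma, rose by 0.34, 0.47 and 0.44 on the log2 scale in Ago2 ADH, Ago2 null and Dicer KO. Its level was 93.01 ± 6.502 CPM in Ago2 fl/fl and 114 ± 5.26 in Ago2 ADH oocytes (mean ± SD, n = 3). Atp5e, the small stalk subunit epsilon, was at 334, 288 and 291 in Ago2 fl/fl, 240.2, 279 and 219.7 in Ago2 ADH, 237 and 257 in Ago2 null, 132, 132 and 109 in Dicer WT and 90.6, 80.4 and 83.6 in Dicer KO libraries. It was lower in every mutant library than in its controls, with log2 fold changes of -0.26 ± 0.07, -0.27 ± 0.07 and -0.55 ± 0.08. The call in Ago2 ADH was lost without Ago2 ADH replicate 1 or 3 or Ago2 fl/fl replicate 1, and that in Ago2 null without Ago2 fl/fl replicate 1 or Ago2 null replicate 1. The catalytic subunit beta, Atp5b, was not called (-0.01 ± 0.06, -0.10 ± 0.07 and -0.03 ± 0.07). Among the remaining subunits Atp5mpl was lower in Ago2 ADH (-0.32 ± 0.07, adjusted p = 4.03e-04) and Dicer KO (-0.35 ± 0.07, adjusted p = 7.84e-04).

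**Figure D3:**
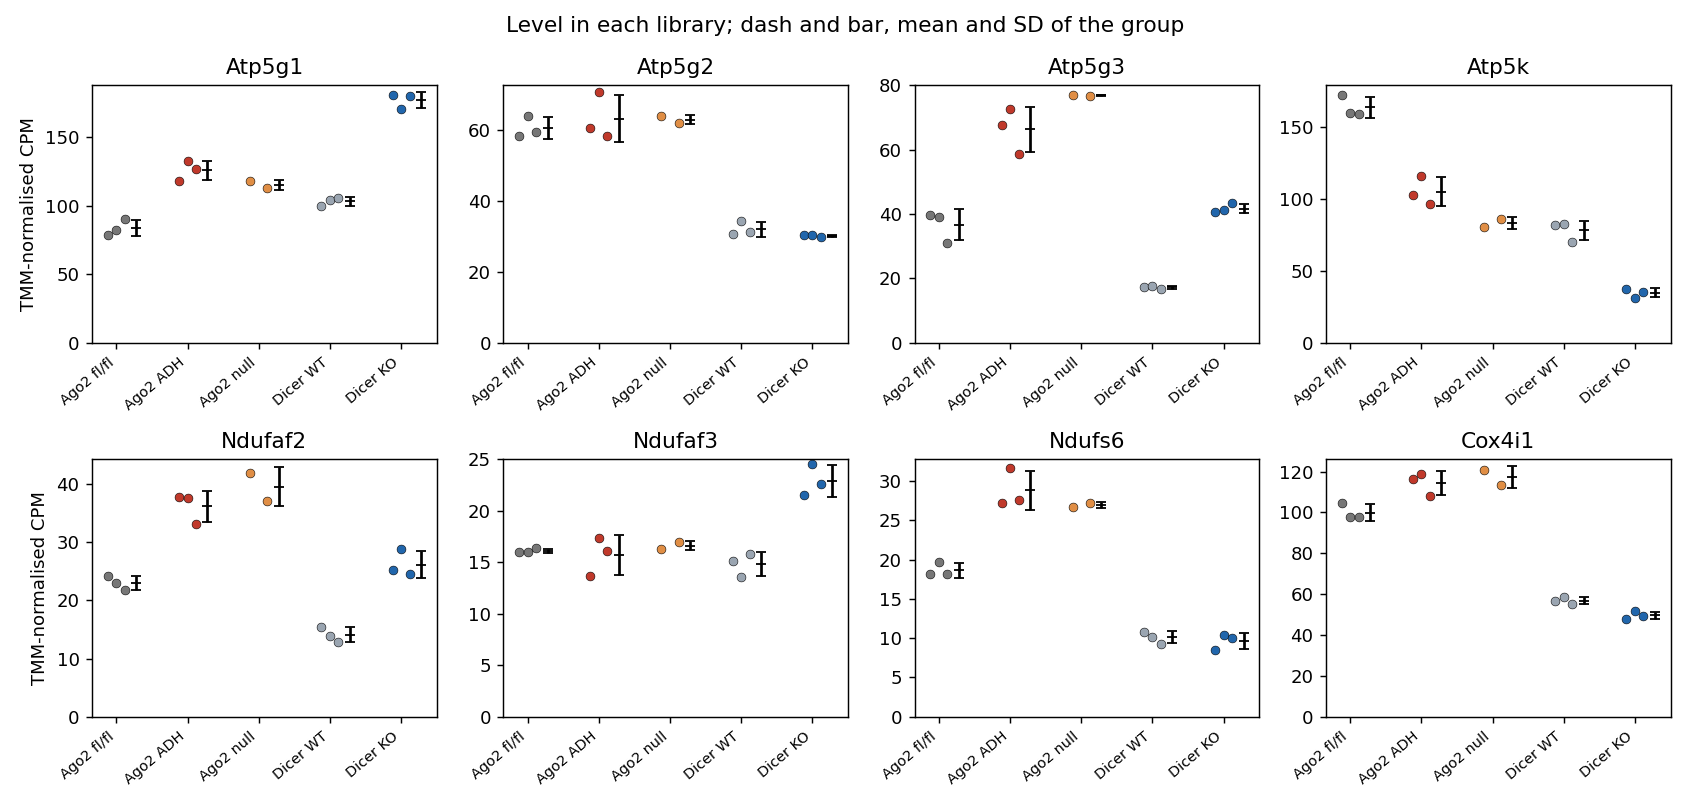
Level of 8 members in each library, in TMM-normalised CPM on a linear axis from 0, with the mean and SD of each group (n = 3, and 2 for Ago2 null). Atp5g3 and Ndufaf2 were higher and Atp5k lower in every mutant library than in its controls, Atp5g2 overlapped between Ago2 ADH and Ago2 fl/fl, Ndufs6 was higher in the Ago2 mutants, and Ndufaf3 was higher in Dicer KO.

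Complex I, the complex with the most genes, also held the most increases by number in the Ago2 mutants. Of its 36 subunit genes 13 were higher and 1 lower in Ago2 ADH, 15 higher and 0 lower in Ago2 null, and 0 were called in Dicer KO oocytes, where 9 had an unadjusted p under 0.05. In the direct test of the Ago2 ADH and Dicer KO effects, 1 of the 36 had a higher effect in Ago2 ADH and 0 a lower one. For most of these genes a difference between the series was thus not shown. The higher share was 36.1% in Ago2 ADH and 41.7% in Ago2 null, against 21.0% and 18.6% of all genes. The lower share was 2.78% and 0%, against 19.9% and 18.7%. For complexes III, IV and V the higher share was 37.5%, 29.4% and 29.4% in Ago2 ADH. In Ago2 null it was 37.5%, 38.9% and 29.4%. In Dicer KO 16.9% of all genes were higher and 17.6% lower. The 7 nuclear core genes, which carry the flavin and iron-sulfur clusters, held 1 higher gene in Ago2 ADH (14.3%, against 21.0% of all genes) and 2 in Ago2 null (28.6%, against 18.6%). Ndufs7, a core subunit near the quinone site, was at 32.7, 33.4 and 29.97 CPM in Ago2 fl/fl, 35.9, 44.2 and 39.8 in Ago2 ADH and 37.8 and 40.7 in Ago2 null libraries. Its log2 fold changes were 0.37 ± 0.08 (adjusted p = 7.49e-04) and 0.32 ± 0.08 (adjusted p = 0.00341). Ndufs1, the largest core subunit, was not called at -0.09 ± 0.09, -0.04 ± 0.11 and -0.19 ± 0.11 in Ago2 ADH, Ago2 null and Dicer KO. Ndufv1, which binds NADH, was not called either, at -0.13 ± 0.09, -0.05 ± 0.09 and -0.11 ± 0.12.

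The 29 accessory genes gave 12 of the increases in Ago2 ADH and 13 in Ago2 null. That is 41.4% and 44.8% of them, against 21.0% and 18.6% of all genes. Ndufs6, a zinc-binding subunit, was at 18.1, 19.7 and 18.1 CPM in Ago2 fl/fl, 27.2, 31.7 and 27.6 in Ago2 ADH and 26.7 and 27.2 in Ago2 null libraries. In the Dicer series it was at 10.8, 10.2 and 9.298 in Dicer WT and 8.52, 10.4 and 10.05 in Dicer KO libraries. The Ago2 mutants lay above their controls without overlap, and the Dicer groups overlapped. The log2 fold changes were 0.68 ± 0.08 (adjusted p = 2.08e-06), 0.56 ± 0.09 (adjusted p = 7.08e-05) and -0.07 ± 0.14 (adjusted p = 0.73). An annotated copy, Ndufs6b, matches 61.3% of its bases. Ndufa11, the highest of the complex per kilobase, was not called, with 0.03 ± 0.06, -0.05 ± 0.07 and -0.02 ± 0.08. Ndufb2, a small membrane subunit, was the accessory gene called lower, at 37.2, 37.4 and 34.01 in Ago2 fl/fl and 26.2, 29.96 and 21.6 in Ago2 ADH libraries, with a log2 fold change of -0.43 ± 0.09 (adjusted p = 7.29e-04).

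The assembly factors, which help to build complex I and are not part of it, moved in both directions. Ndufaf2 was at 24.1, 23.02 and 21.7 CPM in Ago2 fl/fl, 37.7, 37.6 and 33.1 in Ago2 ADH and 41.9 and 37.1 in Ago2 null libraries, and at 15.4, 13.9 and 12.9 in Dicer WT and 25.2, 28.8 and 24.5 in Dicer KO libraries. No mutant library overlapped with its controls, and the log2 fold changes were 0.70 ± 0.08 (adjusted p = 4.46e-07), 0.81 ± 0.09 (adjusted p = 8.12e-07) and 0.89 ± 0.11 (adjusted p = 3.02e-06). Ndufaf3 was at 15.96, 16.02 and 16.4 in Ago2 fl/fl and 13.6, 17.4 and 16.1 in Ago2 ADH libraries, and at 15.1, 13.6 and 15.8 in Dicer WT and 21.5, 24.5 and 22.7 in Dicer KO libraries. It was higher in Dicer KO (0.62 ± 0.11, adjusted p = 1.37e-04) and not called in Ago2 ADH (0.01 ± 0.10, adjusted p = 0.941). Ndufaf4, the highest of these factors per kilobase in Ago2 fl/fl, was lower in Ago2 ADH (-0.29 ± 0.05) and Dicer KO (-0.35 ± 0.07), and Ndufaf8 in Ago2 ADH (-0.35 ± 0.11). Ndufaf4 and Ndufaf8 were named after their values were seen.

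In complex III 3 of 8 genes were higher and 2 lower in Ago2 ADH, 3 higher and 1 lower in Ago2 null, and 0 higher and 2 lower in Dicer KO oocytes. The higher shares were 37.5%, 37.5% and 0%, beside 21.0%, 18.6% and 16.9% of all genes. The lower shares were 25%, 12.5% and 25%, beside 19.9%, 18.7% and 17.6%. Uqcrc1, a core protein, was scarce, at 1.69, 1.13 and 1.26 CPM in Ago2 fl/fl, 4.91, 3.22 and 3.26 in Ago2 ADH and 3.06 and 2.38 in Ago2 null libraries. Its partner core protein Uqcrc2 was at 162 ± 8.96 CPM in Ago2 fl/fl oocytes. The log2 fold changes of Uqcrc1 were 1.53 ± 0.23 (adjusted p = 2.19e-05) and 1.03 ± 0.27 (adjusted p = 0.00404), and the call in Ago2 null was lost without Ago2 fl/fl replicate 2 or 3 or Ago2 null replicate 1 and in the fit over all 5 groups. In the Dicer series it lay at 1.63, 1.17 and 2.098 and 0.748, 1.24 and 2.398, ranges that overlap. Uqcr10, a small subunit, was lower in all 3 mutants, at 73.8, 73.7 and 68.9 in Ago2 fl/fl, 54.1, 54.9 and 51.5 in Ago2 ADH and 52.1 and 51.2 in Ago2 null libraries.

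The log2 fold changes of Uqcr10 were -0.38 ± 0.06 (adjusted p = 2.59e-05), -0.45 ± 0.07 (adjusted p = 4.61e-05) and -0.34 ± 0.10 (adjusted p = 0.00676), and the Dicer KO call was lost without Dicer WT replicate 1, 2 or 3 or Dicer KO replicate 2 or 3. Uqcrfs1, the Rieske iron-sulfur protein, was at 31.7, 25.2 and 27.5 in Ago2 fl/fl, 21.5, 20.6 and 19.96 in Ago2 ADH, 19.4, 20.1 and 21.6 in Dicer WT and 14.5, 14.3 and 14.9 in Dicer KO libraries. It was lower in Ago2 ADH (-0.39 ± 0.09, adjusted p = 0.00109, lost without Ago2 fl/fl replicate 1) and Dicer KO (-0.49 ± 0.11, adjusted p = 0.00117), and in Ago2 null its log2 fold change of -0.21 ± 0.10 was not called. Uqcrh was called higher in Ago2 null only (0.31 ± 0.07, adjusted p = 0.00155), a call lost without Ago2 fl/fl replicate 2 or 3 or Ago2 null replicate 2 and with GC and length offsets (0.22), and whether this differs from Ago2 ADH (0.15 ± 0.06) was tested directly, with an adjusted p of 0.393.

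In complex IV 5 of the 17 genes tested were higher and 1 lower in Ago2 ADH, 7 of 18 higher and 0 lower in Ago2 null, and 0 of 17 higher and 2 lower in Dicer KO. The higher shares were 29.4%, 38.9% and 0%, beside 21.0%, 18.6% and 16.9% of all genes. The lower shares were 5.88%, 0% and 11.8%, beside 19.9%, 18.7% and 17.6%. Cox4i1 was at 105, 97.6 and 97.7 CPM in Ago2 fl/fl, 116, 119 and 108 in Ago2 ADH and 121 and 113 in Ago2 null libraries. The log2 fold changes were 0.24 ± 0.05 (adjusted p = 0.00105) and 0.26 ± 0.06 (adjusted p = 0.00274), and with GC and length offsets they fell to 0.07 and 0.065 and were not called. The Ago2 ADH call was lost without Ago2 ADH replicate 1 or Ago2 fl/fl replicate 2, and the Ago2 null call without Ago2 fl/fl replicate 2 or 3 or Ago2 null replicate 1. In the Dicer series Cox4i1 was at 56.5, 58.5 and 55.2 in Dicer WT and 48.04, 51.6 and 49.2 in Dicer KO libraries, lower without overlap but not called (-0.20 ± 0.07, adjusted p = 0.0359). Cox4i2 was not called in any comparison (-0.29 ± 0.21, -0.71 ± 0.22 and -0.67 ± 0.36).

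The testis form Cox8c was at 2.204, 2.28 and 1.94 CPM in Ago2 fl/fl, 3.94, 4.55 and 3.47 in Ago2 ADH and 3.41 and 5.87 in Ago2 null libraries, higher in every mutant library than in the controls. Its log2 fold changes were 0.94 ± 0.19 (adjusted p = 3.07e-04) and 1.14 ± 0.23 (adjusted p = 6.24e-04), with the Ago2 null call lost without Ago2 null replicate 2, and in Dicer KO it was not called (0.32 ± 0.30). Cox8a was lower in Dicer KO, at 33.5, 38.5 and 32.9 in Dicer WT and 27.4, 26.7 and 26.03 in Dicer KO libraries (-0.39 ± 0.09, adjusted p = 0.00189, lost without Dicer WT replicate 2). Cox7c was also lower there (-0.28 ± 0.06, adjusted p = 8.53e-04). Cox6a2 was lower in Ago2 ADH (-0.43 ± 0.12, adjusted p = 0.00745), a call lost without Ago2 ADH replicate 1 or 3 or Ago2 fl/fl replicate 2 or 3. Cox6b2 was higher in Ago2 ADH (0.28 ± 0.07, adjusted p = 0.00349), lost without Ago2 ADH replicate 1 or 3 or Ago2 fl/fl replicate 3, with GC and length offsets (0.16) and in the fit over all 5 groups (0.24).

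Cox6a1 (0.24 ± 0.06, adjusted p = 0.00538), Cox6c (0.31 ± 0.07, adjusted p = 0.00124) and Ndufa4 (0.27 ± 0.07, adjusted p = 0.00592) were called higher in Ago2 null. The Cox6a1 and Ndufa4 calls were lost without Ago2 fl/fl replicate 2 or 3 or Ago2 null replicate 2, the Cox6c call without Ago2 null replicate 2. With GC and length offsets Cox6a1 was at 0.02 and Ndufa4 at 0.19, and neither was called. The common forms Cox6b1, Cox7a2 and Cox7b and the relative Cox7a2l were not called in the 3 comparisons with controls. Ndufa4l2, with fewer than 1 CPM in every library, was not called at 0.87 ± 0.36, 0.86 ± 0.41 and 0.88 ± 0.56.

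Summed over its subunit genes, complex I was higher in every Ago2 mutant library than in the Ago2 fl/fl libraries, whereas the sums of complex V overlapped. Complex III was lower in every Dicer KO library (288.7 to 301.5 CPM) than in every Dicer WT library (308.3 to 327.6). Of its 8 genes 0 had a positive log2 fold change in Dicer KO, and 2 were called lower. The 36 subunit genes of complex I summed to 1867 ± 55.3 normalised CPM in Ago2 fl/fl, 2056 ± 123 in Ago2 ADH and 2106 ± 39.7 in the Ago2 null libraries (mean ± SD). Complex III summed to 572 ± 32.5, 581 ± 30.5 and 618 ± 26.1, complex IV to 2098 ± 118, 2167 ± 130.3 and 2299 ± 119, and complex V to 2653 ± 93.6, 2623 ± 143 and 2701 ± 37.2 in the same groups. Among the Dicer libraries complex I subunits summed to 1102 ± 40.03 in Dicer WT and 1132 ± 18.2 in Dicer KO oocytes, complex III to 320.5 ± 10.6 and 293.7 ± 6.87, complex IV to 1106 ± 44.1 and 1069 ± 41.7, and complex V to 1817 ± 19.7 and 1828 ± 40.6. All 89 members together held 7488 ± 308 CPM in Ago2 fl/fl, 7700 ± 433 in Ago2 ADH, 8021 ± 227 in Ago2 null, 4592 ± 86.0 in Dicer WT and 4558 ± 84.5 in Dicer KO oocytes. Per kilobase complex V was lower in each mutant, by a log2 ratio of -0.10 in Ago2 ADH, -0.06 in Ago2 null and -0.07 in Dicer KO. Summed over all transcripts of its genes it was at 2931, 2803 and 2752 CPM in Ago2 fl/fl libraries. In Ago2 ADH libraries that sum was 2809, 3034 and 2744, with a slightly higher mean, and in Dicer KO the log2 ratio was 0.07. The direction of complex V thus depends on the scale in each mutant. These sums are dominated by the abundant genes and were not tested.

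Ago2 ADH and Ago2 null oocytes were compared to ask whether losing the whole protein differed from keeping only the allele whose product cannot cleave. With edgeR 0 of the 87 members tested were called higher and 0 lower, where the background over 14364 genes was 0.0696% higher and 0.0487% lower. DESeq2 also called 0, while with GC and length offsets 1 was called higher, and 12 members had an unadjusted p under 0.05. Ago2 itself differed by 1.06 ± 0.15 on the log2 scale. Atp5k had the largest difference relative to its error, 0.33 ± 0.08 (adjusted p = 0.0965), an interval of 0.18 to 0.49 at 2 SE on either side. That of Atp5g3 was -0.21 ± 0.08, from -0.38 to -0.05. Among the 84 members with a mean of at least 100 normalised counts the differences ran from -0.22 to 0.48. With 3 libraries against 2, a p that misses the threshold does not show that the genotypes act alike.

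The Ago2 ADH and Dicer KO effects were compared by an interaction term over the 12 libraries of both series. Of 86 members 3 had a higher effect in Ago2 ADH and 1 a lower one, and the background over 14530 genes was 1.30% and 2.44%. Ndufs6 differed by 0.69 ± 0.15 (adjusted p = 0.00498), from an increase in Ago2 ADH and overlapping groups in the Dicer series. Atp5k differed by 0.53 ± 0.11 (adjusted p = 0.00341), as it fell in both and by more in Dicer KO. Cox4i1 differed by 0.39 ± 0.09 (adjusted p = 0.00594), with values of opposite sign in the 2 series, that in Dicer KO not called. Ndufaf3 differed by -0.66 ± 0.15 (adjusted p = 0.006), since it was higher in Dicer KO. With single libraries left out these differences stayed at 0.61 to 0.75 for Ndufs6, 0.45 to 0.60 for Atp5k, 0.36 to 0.43 for Cox4i1 and -0.74 to -0.57 for Ndufaf3, but the calls were lost in part: 0 members were called without Ago2 fl/fl replicate 3, Dicer WT replicate 1 or Dicer WT replicate 2, 1 without Ago2 ADH replicate 2 or Ago2 fl/fl replicate 2, and 2 without Ago2 ADH replicate 1, Ago2 fl/fl replicate 1 or Dicer KO replicate 1 or 2.

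Uqcrc1 (1.62 ± 0.47, adjusted p = 0.0311) and Uqcrb (0.68 ± 0.18, adjusted p = 0.0229) had differences of similar or larger size that were not called at 1%. Uqcrb, a small complex III subunit named here after its values were seen, was higher in Ago2 ADH (0.61 ± 0.11) and at -0.13 ± 0.15 in Dicer KO, and pseudogenes match 62.8% of its bases. For the genes that rose in all mutants the differences were -0.42 ± 0.13 for Atp5g3, -0.19 ± 0.09 for Atp5g1 and -0.24 ± 0.13 for Ndufaf2, and none was called.

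**Figure D4:**
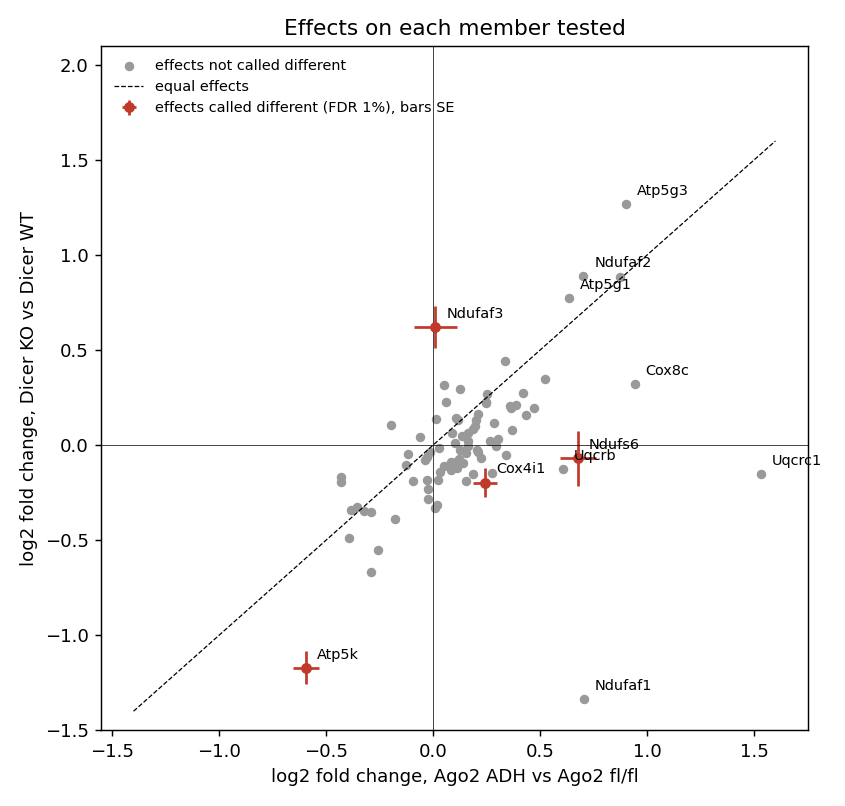
Log2 fold change of each member in Ago2 ADH against Ago2 fl/fl (horizontal axis) and in Dicer KO against Dicer WT (vertical axis); the dashed line marks equal effects, and red points with SE bars are the 4 members whose effects were called different at an FDR of 1%. Atp5g3, Atp5g1 and Ndufaf2 lie at the upper right and Atp5k at the lower left, while Ndufs6 and Ndufaf3 lie near an axis.

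Other genes of the pathway, of which those named were chosen with their values seen, were taken from lists of complex II, cytochrome c and c1, assembly factors outside the naming rule, and mitochondrial transcription and biogenesis. Of 59 tested 19 were higher and 9 lower in Ago2 ADH, of 61 tested 17 and 8 in Ago2 null, and of 60 tested 13 and 5 in Dicer KO. That is 32.2% higher and 15.3% lower in Ago2 ADH, beside 21.0% and 19.9% of all genes, 27.9% and 13.1% in Ago2 null, beside 18.6% and 18.7%, and 21.7% and 8.33% in Dicer KO, beside 16.9% and 17.6%. In complex II, which feeds electrons from succinate, 2, 2 and 1 of 4 genes were higher in Ago2 ADH, Ago2 null and Dicer KO and 0 lower. Sdha, its flavoprotein, rose in all 3 (0.69 ± 0.06, 0.74 ± 0.07 and 0.69 ± 0.06), and Sdhb, its iron-sulfur protein, rose in the Ago2 mutants (0.58 ± 0.07 and 0.55 ± 0.08). Cytochrome c, Cycs, fell in Ago2 ADH (-0.24 ± 0.07) and Dicer KO (-0.29 ± 0.07), whereas cytochrome c1, Cyc1, rose in Ago2 ADH (0.81 ± 0.10) and Ago2 null (0.72 ± 0.13).

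Among the 8 complex I assembly genes outside the rule 3, 3 and 4 were higher and 0, 1 and 0 lower in Ago2 ADH, Ago2 null and Dicer KO, with Timmdc1 at 0.62 ± 0.12, 0.77 ± 0.11 and 0.89 ± 0.12. Of the complex III assembly genes 2 of 5, 2 of 6 and 1 of 5 were higher and 1, 0 and 1 lower, with Lyrm7, which helps to insert the Rieske protein, at 1.05 ± 0.16, 0.95 ± 0.19 and 1.46 ± 0.22. Of 19 complex IV assembly genes 3 were higher in each (15.8%) and 4, 3 and 2 lower (21.1%, 15.8% and 10.5%). For all genes it was 21.0%, 18.6% and 16.9% higher and 19.9%, 18.7% and 17.6% lower. Sco1, a copper chaperone of this complex, rose by 1.84, 1.67 and 1.35 on the log2 scale, while Cox17, another copper chaperone, was at -0.51 ± 0.09, -0.38 ± 0.09 and -0.40 ± 0.11 and lower in all 3. Of the 3 complex V assembly genes 1, 0 and 1 were higher and 0 lower.

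In the list of mitochondrial transcription and biogenesis 7 of 18, 6 of 19 and 3 of 19 genes were higher and 3, 4 and 1 lower. The higher shares were 38.9%, 31.6% and 15.8%, beside 21.0%, 18.6% and 16.9% of all genes. The lower shares were 16.7%, 21.1% and 5.26%, beside 19.9%, 18.7% and 17.6%. Nrf1, a transcription factor of respiratory genes, rose in all 3 mutants (0.31 ± 0.07, 0.35 ± 0.07 and 0.39 ± 0.08), as did Yy1 (1.29 ± 0.17, 1.30 ± 0.16 and 0.77 ± 0.16) and Twnk, the mitochondrial DNA helicase (1.13 ± 0.11, 1.16 ± 0.12 and 1.26 ± 0.14). Tfb1m, a methyltransferase of mitochondrial ribosomal RNA, fell in all 3 (-0.40 ± 0.07, -0.46 ± 0.08 and -0.61 ± 0.09). The coactivator Ppargc1b fell in Ago2 ADH (-0.60 ± 0.16) and Ago2 null (-0.97 ± 0.16). The related Ppargc1a, at or under 1.43 CPM in each group's mean, fell in Ago2 null (-2.29 ± 0.44) and was at -0.74 ± 0.45 in Ago2 ADH and -0.91 ± 0.40 in Dicer KO, not called.

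The genes of mitochondrial and cytosolic ribosomal proteins are given for comparison. Of 78 mitochondrial ribosomal genes 15 were higher and 10 lower in Ago2 ADH (median log2 fold change 0.01), 16 and 8 in Ago2 null (0.06), and of 77 tested 7 and 6 in Dicer KO (-0.01). Of 85 cytosolic ribosomal genes tested 39 were higher and 1 lower in Ago2 ADH (0.15), 42 and 5 in Ago2 null (0.22), and 21 and 6 in Dicer KO (0.11). The higher share of the mitochondrial ribosomal genes was 19.2%, 20.5% and 9.09% and that of the cytosolic ribosomal genes 45.9%, 49.4% and 24.7%, beside 21.0%, 18.6% and 16.9% of all genes. The lower shares were 12.8%, 10.3% and 7.79% and 1.18%, 5.88% and 7.06%, beside 19.9%, 18.7% and 17.6%. The medians of the oxidative phosphorylation genes were 0.13, 0.18 and -0.03, and the difference between the lists was not tested.

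Some features of the counting bear on these genes. The members are short, with a median transcript length of 731 bases against 2908 for all genes tested in Ago2 ADH, and 28 of them share a stretch of at least 100 bases at 95% identity with another annotated gene. Of these 28 genes 11 were higher and 2 lower in Ago2 ADH, with a median of 0.14, and of the 58 tested without such a stretch 16 were higher and 7 lower, with a median of 0.13. The exons of 26 members overlap a gene on the other strand, by less than 50% of their bases in each case, and reads were counted without regard to strand, so that the partners cannot be told apart there.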

How the data were processed

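RNA-seq was performed on 14 libraries of mouse oocytes, for which the authors deposited unnormalized counts of reads on each RefSeq transcript. To make them, the authors amplified cDNA from lysed oocytes, sequenced paired-end reads, aligned them to mm10 with TopHat (TopHat2 2.0.7 in the submitters' processing notes) and counted with HTSeq 0.6.1 regardless of strand. Reads with several alignments, kept in a separate tally, were not used for levels. The no-feature and other tallies stayed out of library sizes.

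The 26495 transcript IDs were paired with symbols from RefSeq (26077) and GENCODE (117) on GRCm38, the assembly of mm10, and 301 stayed without one. The transcript with the highest mean count stood for each of 20638 genes. Length and GC content came from GENCODE transcripts, which can be longer than the RefSeq model that was counted. Comparisons were fitted separately, on the groups compared, in edgeR 4.0.16 under R 4.3.3 (filterByExpr with a minimum count of 10 and a minimum total of 15, TMM, quasi-likelihood test, Benjamini-Hochberg adjustment over all transcripts, FDR of 1%). Levels are CPM normalised by TMM over the 14 libraries. Backgrounds were counted at 1 transcript per gene. Similar stretches were found with BLAST 2.17.0, and tables were made with Python 3.11.15.

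Groups were taken from the labels. The members and the lists (pathway genes and markers of oocyte, granulosa, theca, immune, endothelial and erythroid cells) were chosen with earlier results of these data known. Named were, in each comparison with controls, the 4 largest increases and decreases among called members with at least 100 mean normalized counts, members called in the other tests, the isoform genes, the highest member per kilobase of each complex, and examples of the core subunits. Of the other pathway genes up to 4 values were foreseen, and those named beyond that, like the genes said to be so in the text, were chosen after their values were seen. Alternatives were DESeq2 1.42.0, RLE normalization, other filters, an FDR of 5%, 1 transcript per gene, a fit over all 5 groups, leaving out single replicates, offsets for GC and length, and blocking on the replicate number. No pair of replicates agreed within sampling noise (chi-square per degree of freedom 6.54 to 14.9). edgeR was tested on simulated data.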

Additional observations from a re-analysis of the deposited data

Results flagged for a closer look

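For 4 members the Ago2 ADH and Dicer KO effects differed in a test of the difference itself, edgeR's interaction term at an FDR of 1%. The Ago2 ADH effect minus the Dicer KO effect was 0.69 on the log2 scale for Ndufs6, 0.53 for Atp5k, 0.39 for Cox4i1 and -0.66 for Ndufaf3. With 1 library left out the differences stayed at 0.61 to 0.75, 0.45 to 0.60, 0.36 to 0.43 and -0.74 to -0.57 in the same order, and the call was lost in 6, 6, 7 and 8 of the 12 cases.

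The tally of reads with several alignments, which enters no level given here, was above that of the controls in every mutant library. Its mean per 100 transcript counts was 161 in Ago2 ADH and 161.1 in Ago2 null against 57.2 in Ago2 fl/fl libraries, and 103.1 in Dicer KO against 45.8 in Dicer WT libraries. Its part in the changes of single members was not tested. No group held enough libraries for a test of outlying samples.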

How the results depend on the processing

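The replicate numbers do not mark a shared animal or day in the labels, and the deviations of libraries with the same number correlated at -0.183 to 0.0792, so the samples share only a number. With the replicate block 17 members were higher in Ago2 null than in Ago2 fl/fl oocytes and 1 was higher in Ago2 ADH than in Ago2 null, while the other counts stayed within 1.5 times. The block also ended the calls of Uqcr10 in Dicer KO (-0.34) and of Uqcrc1 (0.9953), Uqcrh (0.28), Cox4i1 (0.25), Cox6a1 (0.20), Cox6c (0.26) and Ndufa4 (0.24) in Ago2 null. With offsets for GC content and length 19 members were higher and 10 lower in Ago2 null (median log2 fold change 0.073), and 1 was higher in Ago2 ADH than in Ago2 null. With the replicate block and these offsets together, 15 were higher and 9 lower in Ago2 null (median 0.062), 1 was higher in Ago2 ADH than in Ago2 null (median 0.015), and Cox6a1 in Ago2 null turned from 0.24 to -0.0039, the only reversal. The cause was not tested. With all 5 groups in one fit 9 members were higher in Dicer KO. At an FDR of 5% 10 were lower in Ago2 null, 10 higher and 13 lower in Dicer KO, and 8 had different Ago2 ADH and Dicer KO effects.

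Leaving out each replicate in turn gave 17 to 33 members higher in Ago2 null and 0 to 6 with different effects. The lowest count of higher members in Ago2 null, 17, was without Ago2 null replicate 2. DESeq2, RLE normalization, the other filters and 1 transcript per gene kept all member counts within 1.5 times. Of 44 calls of named members 25 held in every setting, and 88 of 714 values missed the threshold, 65 of them with a replicate left out. Amplified reads without molecular identifiers, 2 Ago2 null libraries and shared control libraries limit precision. Differences in counts near the floor of 3 were not detectable at this depth.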
